A study of Mus musculus with 16 samples.

Results

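The genes described here are Gpnmb, Atp6v0d2, Spp1, Lgals3, Acp5, Ctsk, Trem2, Cd9 and Fabp5, a set of 9 genes proposed as markers of lipid-associated macrophages of the Gpnmb type. They were found as the rows of the deposited count table whose Ensembl identifiers map to these symbols in the GENCODE annotation of GRCm38, which gave 9 of 29730 genes, and all 9 passed the filter on low counts. The samples are tibialis anterior muscles, which lift the foot, of 16 male C57BL/6N mice aged 7 weeks, 4 in each of 4 groups. WT_PBS and WT_ASO are wild-type mice given phosphate-buffered saline or ASO1, an antisense oligonucleotide that the series title directs against Dnm2. KO_PBS and KO_ASO are mice of the Bin1mck-/- line, which models a recessive centronuclear myopathy, given saline or ASO1. The sources used here do not give the dose, the schedule, the deleted part of Bin1 or the cells that lost it. The groups let the effect of the Bin1mck-/- genotype, and of ASO1 in either genotype, be read in these genes. The 9 genes were selected on a biological theme with measured fold changes of KO_PBS vs WT_PBS and KO_ASO vs KO_PBS in view, so their values in these comparisons are a description and carry no test here.

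Lipid-associated macrophages are phagocytes that take up lipid and cell debris and are rich in lysosomes. They are known from adipose tissue, atherosclerotic plaques and injured muscle, and several of their genes are shared with osteoclasts, the bone-resorbing cells of the same lineage. Gpnmb is a transmembrane glycoprotein of late endosomes and lysosomes, Atp6v0d2 is a subunit of the vacuolar proton pump that acidifies them, and Lgals3 encodes galectin-3, a sugar-binding protein that gathers on damaged lysosomes. Trem2 is a surface receptor for lipids that signals through the adaptor Tyrobp and the kinase Syk, Fabp5 carries fatty acids and Cd9 is a tetraspanin. Spp1 encodes osteopontin, a secreted ligand of integrins and Cd44, while Acp5, a phosphatase, and Ctsk, a collagen-degrading protease, are enzymes of bone resorption.

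The sequence around the transcription start is shown for Gpnmb, Lgals3 and Trem2, whose means were higher in KO_PBS, and for Spp1, whose mean was not. The RefSeq promoter table of GRCm38.p6 matched 7 of the 9 genes with 10 starts, and had no entry for Atp6v0d2 and Fabp5. Each stretch runs 5′ to 3′ on the plus strand over 150 bases before the start and 20 from it, and capitals mark a match on either strand to 1 of 4 motifs.
Gpnmb, chr6:49036368-49036537: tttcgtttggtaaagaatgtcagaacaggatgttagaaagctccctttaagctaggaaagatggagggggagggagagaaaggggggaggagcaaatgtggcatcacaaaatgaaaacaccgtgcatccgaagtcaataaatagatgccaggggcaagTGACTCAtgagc
Lgals3, chr14:47373710-47373879: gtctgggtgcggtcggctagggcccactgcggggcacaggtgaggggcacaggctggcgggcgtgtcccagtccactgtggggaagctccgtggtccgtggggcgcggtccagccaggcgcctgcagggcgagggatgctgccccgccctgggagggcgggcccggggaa
Trem2, chr17:48346251-48346420: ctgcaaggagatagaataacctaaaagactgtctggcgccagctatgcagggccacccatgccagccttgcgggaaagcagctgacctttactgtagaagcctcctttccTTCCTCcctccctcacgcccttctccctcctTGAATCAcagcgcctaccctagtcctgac
Spp1, start 1, chr5:104434961-104435130: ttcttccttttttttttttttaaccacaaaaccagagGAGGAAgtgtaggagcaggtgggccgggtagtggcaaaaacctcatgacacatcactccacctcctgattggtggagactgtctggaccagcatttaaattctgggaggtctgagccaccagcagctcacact
The motifs were CACGTG and TCATGTG, sites of the MiT/TFE factors that drive lysosomal genes, TGANTCA, the site of AP-1, and GAGGAA, the core of the site of the myeloid factor PU.1. Over the whole window of 250 bases before and 50 after a start, they were present in 7.15%, 3.77%, 7.81% and 28.3% of 32851 promoters, respectively. Gpnmb held TGACTCA 8 bases after its start, and Trem2 held TGAATCA at -9 and TTCCTC, the reverse complement of GAGGAA, at -40. Spp1 held GAGGAA at -113, Ctsk held it at -233 and its reverse complement at -58, and the third start of Acp5 held CACATGA, the reverse complement of TCATGTG, at -90. None of the 4 motifs was found in the window of Lgals3 or Cd9, which says only that these letters are not in it. These matches are a description of the sequence.

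Total counts ran from 27591900 to 40862854 per sample. Values below are CPM, counts scaled to 1000000 per sample, on library sizes scaled by edgeR's TMM method, a trimmed mean of log ratios. Bin1 measured 463 to 620 CPM in the wild-type samples and 31.7 to 47.7 CPM in the Bin1mck-/- samples, and Dnm2 measured 50.2 to 67.7 CPM with saline and 20.7 to 31.1 CPM with ASO1, as the labels say. Some libraries stood apart. KO_PBS replicate 4 had the highest sum of 10 macrophage markers of the 16 samples, 329 CPM, against 110 to 185 CPM in the other KO_PBS samples. Ibsp, a bone matrix gene, was read at 1.02, 2.23 and 4.29 CPM in WT_PBS replicates 1, 3 and 4, at 0 in WT_PBS replicate 2 and at no more than 0.136 CPM in the other 12 samples. Calls of named genes in KO_PBS that were lost without KO_PBS replicate 4 are given with and without it.

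Gpnmb measured 2.31, 1.56, 3.92 and 1.88 CPM in WT_PBS replicates 1 to 4 and 26.1, 35.7, 38.3 and 44.1 CPM in KO_PBS. It measured 3.34, 2.08, 4.07 and 2.25 CPM in WT_ASO and 1.68, 2.36, 4.40 and 6.31 CPM in KO_ASO. The KO_PBS samples thus stood alone, each well above the highest value of any other group, and the remaining groups overlapped. The log2 fold change (log2FC) was 3.88 (SE 0.39, n = 4 per group) for KO_PBS vs WT_PBS, or 14.8-fold, and fell by 3.30 (SE 0.37) for KO_ASO vs KO_PBS. With 4 samples a group and bulk tissue, fewer cells of a type and less RNA per cell cannot be told apart, for Gpnmb and for every gene below. Gpnmb lies at chr6:49036546-49070929 on the plus strand of GRCm38.

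Atp6v0d2 was almost absent outside KO_PBS. It measured 0.0292, 0.0372, 0.130 and 0.10 CPM in WT_PBS, 0.0655, 0, 0.121 and 0.0278 CPM in WT_ASO, and 0.0272, 0, 0.0346 and 0.139 CPM in KO_ASO. In KO_PBS it measured 1.43, 3.94, 2.19 and 1.36 CPM. These are 52 to 139 counts a sample in KO_PBS and at most 5 in any other sample, and a sample at 0 counts allows a level of up to 0.0791 CPM (WT_ASO replicate 2) or 0.10 CPM (KO_ASO replicate 2) at 3 counts. Summed over 4 samples, KO_PBS held 336 counts, WT_PBS 11, WT_ASO 7 and KO_ASO 6. Scaled by library size, KO_PBS was 30.8 times WT_PBS (95% exact interval 17.0 to 62.4) and 49.3 times KO_ASO (22.4 to 135), intervals that cover counting error only. The fitted log2FC was 4.78 (SE 0.59) for KO_PBS vs WT_PBS and -5.43 (SE 0.64) for KO_ASO vs KO_PBS. The gene lies at chr4:19876841-19922605 on the minus strand. Its close relative Atp6v0d1, the subunit found in most cells, measured 31.0 to 32.8 CPM in WT_PBS and 32.8 to 37.9 CPM in KO_PBS (log2FC 0.14), which was not called.

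Lgals3 measured 3.01, 3.72, 4.15 and 3.23 CPM in WT_PBS and 24.2, 26.2, 22.5 and 46.2 CPM in KO_PBS. It measured 3.70, 3.82, 8.05 and 3.81 CPM in WT_ASO and 4.32, 9.65, 5.78 and 9.27 CPM in KO_ASO. KO_PBS again stood above all other samples, and, unlike Gpnmb and Atp6v0d2, every KO_ASO sample remained above every WT_PBS sample. The log2FC was 3.07 (SE 0.32) for KO_PBS vs WT_PBS, -2.04 (SE 0.31) for KO_ASO vs KO_PBS and 1.04 (SE 0.32) for KO_ASO vs WT_PBS, the last of which did not pass the threshold over all genes. KO_ASO kept 24.4% of the KO_PBS mean of Lgals3, against 10.2% for Gpnmb and 2.25% for Atp6v0d2. Lgals3 lies at chr14:47367751-47386160 on the plus strand.

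Trem2 did not follow that pattern. It measured 0.263, 0.261, 0.208 and 0.251 CPM in WT_PBS, 0.393, 0.463, 0.607 and 0.222 CPM in WT_ASO and 0.272, 0.160, 0.554 and 0.697 CPM in KO_ASO. In KO_PBS it measured 1.19, 0.198, 0.390 and 6.36 CPM, so that replicate 4 was 5.37 times the next sample and replicate 2 lay below all WT_PBS samples. KO_PBS vs WT_PBS gave a log2FC of 3.04 (SE 0.85), and 1.26 without KO_PBS replicate 4, when it was no longer called. The call was also lost when any of WT_PBS replicates 1 to 4 was left out, with a log2FC of 3.08, 3.07, 2.97 and 3.06, respectively. A fit that held the replicate number as a block gave 2.5 and did not call Trem2 (edgeR adjusted P = 0.0607). KO_ASO vs KO_PBS gave -2.29 (SE 0.81), which was not called. Trem2 lies at chr17:48346401-48354147 on the plus strand.

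Fabp5 and Cd9, the fatty acid carrier and the tetraspanin, differed little between groups. Fabp5 measured 4.47, 3.46, 4.49 and 4.64 CPM in WT_PBS, 5.35, 3.74, 5.56 and 6.04 CPM in KO_PBS, 4.81, 1.71, 4.68 and 5.36 CPM in WT_ASO and 4.94, 6.17, 6.16 and 5.92 CPM in KO_ASO. The log2FC was 0.28 (SE 0.25) for KO_PBS vs WT_PBS and 0.16 (SE 0.25) for KO_ASO vs KO_PBS, and each KO_ASO sample lay above each WT_PBS sample. Cd9 measured 17.9, 13.0, 17.3 and 15.7 CPM in WT_PBS, 22.8, 19.0, 19.8 and 16.4 CPM in KO_PBS, 13.5, 13.0, 13.6 and 19.5 CPM in WT_ASO and 13.4, 13.5, 16.4 and 29.0 CPM in KO_ASO. Its log2FC was 0.29 (SE 0.22) and -0.11 (SE 0.21), with overlapping groups in both comparisons. A processed pseudogene of Cd9 has its own row in the table, so the split of reads between near-identical copies is uncertain for Cd9. Fabp5 lies at chr3:10012548-10016607 on the plus strand and Cd9 at chr6:125460266-125494791 on the minus strand.

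The genes linked to bone resorption did not separate KO_PBS from WT_PBS either. Spp1 measured 1.99, 0.708, 2.93 and 7.15 CPM in WT_PBS and 2.10, 1.53, 1.90 and 6.39 CPM in KO_PBS, with replicate 4 highest in both groups. It measured 0.818, 1.59, 1.67 and 3.75 CPM in WT_ASO and 2.99, 2.08, 0.761 and 1.25 CPM in KO_ASO. All 4 groups overlapped, and the log2FC was -0.11 (SE 0.63) for KO_PBS vs WT_PBS and -0.74 (SE 0.65) for KO_ASO vs KO_PBS. Acp5 measured 1.58, 0.670, 1.37 and 3.21 CPM in WT_PBS, 0.689, 0.793, 1.29 and 2.91 CPM in KO_PBS, 1.60, 0.405, 1.21 and 1.08 CPM in WT_ASO and 0.923, 0.767, 0.485 and 0.941 CPM in KO_ASO. Replicate 4 was again the highest sample of WT_PBS and of KO_PBS, and the log2FC was -0.27 (SE 0.49) and -0.87 (SE 0.52). Ctsk measured 5.64, 5.14, 5.55 and 7.02 CPM in WT_PBS, 13.0, 6.43, 7.73 and 11.3 CPM in KO_PBS, 2.72, 4.25, 5.65 and 6.59 CPM in WT_ASO and 3.29, 3.96, 7.96 and 6.06 CPM in KO_ASO. Its groups overlapped, with only KO_PBS replicate 2 within the range of WT_PBS, and the log2FC was 0.72 (SE 0.29) and -0.86 (SE 0.30), neither of which was called. Spp1 lies at chr5:104435118-104441050 on the plus strand, Acp5 at chr9:22126727-22135711 on the minus strand and Ctsk at chr3:95499256-95509362 on the plus strand.

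Ibsp, Mmp13 and Mmp9, genes expressed in bone, were also read in these samples. Ibsp, which encodes bone sialoprotein of the same family as osteopontin, measured 1.02, 0, 2.23 and 4.29 CPM in WT_PBS replicates 1 to 4, the same order of samples as Spp1. Mmp13, a collagenase of bone and cartilage chosen after its values were seen, measured 2.34, 0.0745, 4.12 and 5.59 CPM there and at most 0.353 CPM in any other sample. Mmp9, an osteoclast protease, measured 0.556, 0.559, 1.06 and 1.5 CPM there but 0.248 to 0.838 CPM in KO_PBS, which overlapped WT_PBS, 0.0655 to 0.213 CPM in WT_ASO and 0.244 to 0.489 CPM in KO_ASO. All 3, like Spp1 and Acp5, were highest in WT_PBS replicate 4 within that group, but Acp5 was higher in replicate 1 than in replicate 3 where the 3 were not. The part of these genes in the values of Spp1, Acp5 and Ctsk was not tested. With WT_PBS replicate 2, the sample without Ibsp, as the only WT_PBS sample, KO_PBS vs WT_PBS gave a log2FC of 2.07 for Spp1 and 1.08 for Acp5, and neither was called (edgeR adjusted P = 0.381 and 0.557). In this fit the lone sample is assumed to vary like the other groups. It was chosen after its values were seen and was also the lowest WT_PBS sample for Spp1 and Acp5, so that the turn in sign from the values above follows from the choice. The same choice gave 5.76 for Atp6v0d2 and 2.99 for Lgals3, and with a single WT_PBS sample 1 of the 9 genes was called, Gpnmb.

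**Figure D1:**
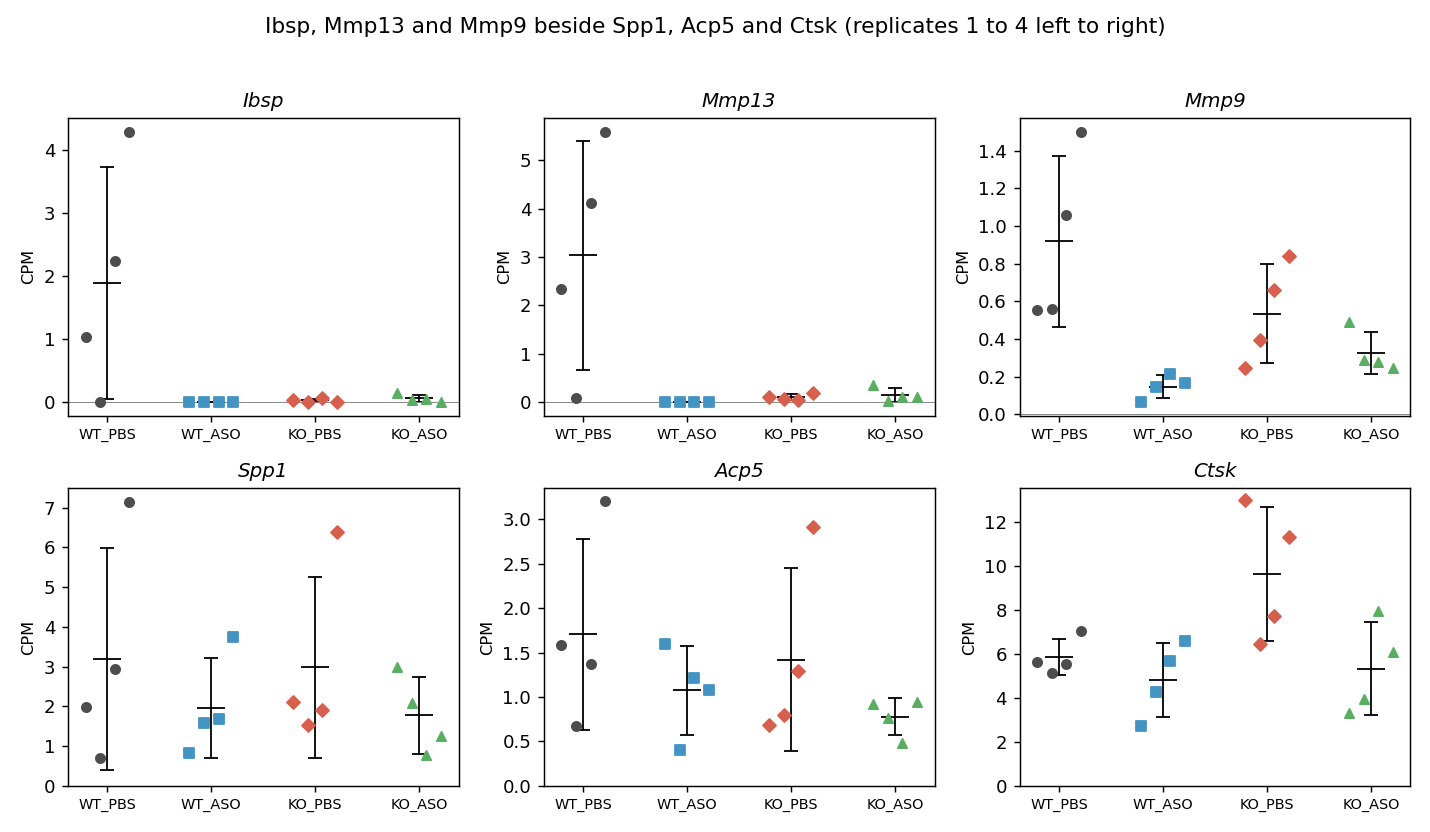
Ibsp, Mmp13 and Mmp9 beside Spp1, Acp5 and Ctsk (vertical axes, CPM) in the 4 groups, with 1 point per sample, a bar at the mean and whiskers of 1 SD (n = 4). In WT_PBS, Ibsp (up to 4.29 CPM) and Mmp13 (up to 5.59 CPM) are high in replicates 1, 3 and 4, and Spp1 and Acp5 are highest in replicate 4.

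Per kilobase of exon, the order of the 9 genes in WT_PBS was led by Cd9 at 7.81 ± 1.08 CPM per kb (SD, n = 4) and Ctsk at 3.86 ± 0.541, followed by Spp1 at 1.94 ± 1.69, Lgals3 at 1.90 ± 0.274, Fabp5 at 1.20 ± 0.151 and Acp5 at 0.842 ± 0.529. Gpnmb at 0.371 ± 0.160, Trem2 at 0.0496 ± 0.00524 and Atp6v0d2 at 0.0273 ± 0.0180 came last. In KO_PBS, Lgals3 led at 16 ± 5.96 CPM per kb, before Cd9 at 9.53 ± 1.29, Ctsk at 6.37 ± 2.03 and Gpnmb at 5.53 ± 1.16. Spp1, Fabp5, Atp6v0d2, Acp5 and Trem2 followed at 1.81 ± 1.39, 1.45 ± 0.280, 0.821 ± 0.442, 0.700 ± 0.506 and 0.411 ± 0.590. Neighbours in the order that lay within 1 SD of each other were Spp1 and Lgals3, Fabp5 and Acp5, and Acp5 and Gpnmb in WT_PBS, and Ctsk and Gpnmb, Spp1 and Fabp5, Atp6v0d2 and Acp5, and Acp5 and Trem2 in KO_PBS.

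Of the 9 genes, 4 were called higher and 0 lower in KO_PBS than in WT_PBS by edgeR at an adjusted P under 0.05. Of 14960 genes tested, 12.6% were called in either direction, 7.43% higher and 5.12% lower. In KO_ASO vs KO_PBS, 3 of the 9 were called lower and 0 higher, where 2.83% of all genes were called lower and 0.802% higher. The median log2FC of the 9 genes was 0.72 and -0.87 in these comparisons, beside -0.01 and 0.01 over all genes tested. The groups did not overlap for the same 3 genes, Gpnmb, Atp6v0d2 and Lgals3, in either comparison, where 10.5% of all genes lay without overlap above WT_PBS in KO_PBS, and 6.34% lay without overlap below KO_PBS in KO_ASO. Both comparisons share the KO_PBS samples, and they are those for which the genes were proposed, so nothing is read from these counts. Among these values, on which the genes were selected, Gpnmb, Atp6v0d2 and Lgals3 were high in every KO_PBS sample and Trem2 mainly in replicate 4, while Spp1, Acp5, Ctsk, Cd9 and Fabp5 were not called, so the label was not met by all 9 and was not tested.

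**Figure D2:**
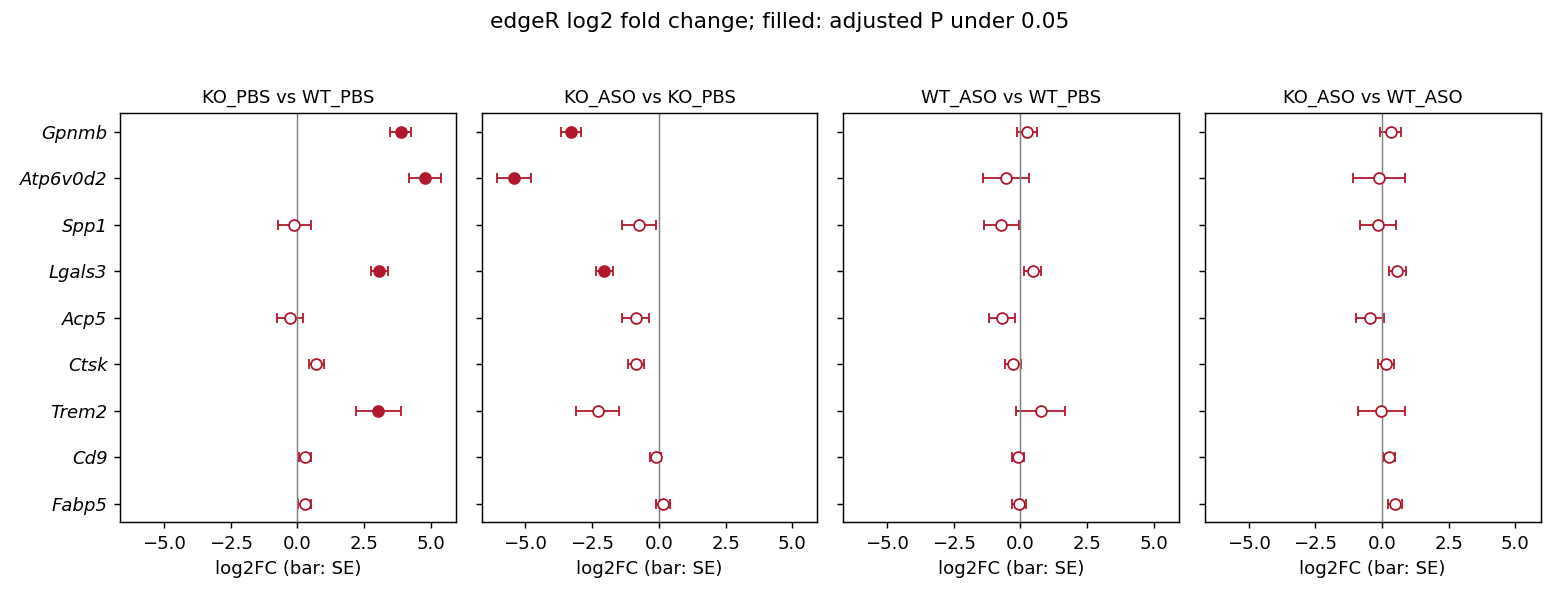
log2FC of the 9 genes (horizontal axis, bars 1 SE) in 4 comparisons, filled where the edgeR adjusted P was under 0.05. Gpnmb, Atp6v0d2 and Lgals3 are filled in the comparisons that involve KO_PBS, Trem2 in KO_PBS vs WT_PBS only, and no gene is filled in WT_ASO vs WT_PBS or KO_ASO vs WT_ASO.

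Next, ASO1 was compared with saline in wild-type mice, which asks whether the oligonucleotide alone moved these genes. By edgeR 0 of the 9 genes were called (adjusted P 0.854 to 0.992), 0 had an unadjusted P under 0.05, and DESeq2 called 0. Of all genes tested 0.00668% were called, and 6.45% had an unadjusted P under 0.05. The log2FC was 0.26 (SE 0.38) for Gpnmb, -0.54 (SE 0.88) for Atp6v0d2, 0.46 (SE 0.32) for Lgals3 and 0.77 (SE 0.92) for Trem2. For Spp1, Acp5, Ctsk, Cd9 and Fabp5 it was -0.71, -0.69, -0.28, -0.10 and -0.05. Dnm2 was lower in the same comparison by a log2FC of -1.13 (SE 0.11, edgeR adjusted P = 0.000396). WT_PBS is shared with the comparison for which the genes were proposed.

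KO_ASO vs WT_ASO asks whether the genotype still mattered under ASO1. Here too 0 of the 9 genes were called by edgeR (adjusted P 0.377 to 0.994), 0 had an unadjusted P under 0.05, and DESeq2 called 0, where 0.0735% of all genes were called and 15.1% had an unadjusted P under 0.05. Gpnmb differed by a log2FC of 0.32 (SE 0.38), Atp6v0d2 by -0.12 (SE 0.98), Lgals3 by 0.58 (SE 0.31) and Trem2 by -0.02 (SE 0.88). Fabp5 differed by 0.49 (SE 0.25), Ctsk by 0.14, Cd9 by 0.27, Spp1 by -0.14 and Acp5 by -0.45. Of the 18 two-sided exact permutation tests of the 9 genes in these last 2 comparisons, 0 fell under 0.05, and they ranged from 0.0571, for Fabp5 in KO_ASO vs WT_ASO, to 1, where 4 samples against 4 cannot go below 0.0286. The errors were widest for Atp6v0d2 and Trem2, the genes with the fewest counts, and the missing calls do not show equal levels. KO_ASO shares its samples with a comparison for which the genes were proposed.

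The change with ASO1 in Bin1mck-/- mice less that in wild-type mice, the interaction, was -3.56 (SE 0.53) on the log2 scale for Gpnmb, -4.89 (SE 1.27) for Atp6v0d2, -2.49 (SE 0.44) for Lgals3 and -3.06 (SE 1.23) for Trem2. Gpnmb and Lgals3 passed the edgeR threshold, 2 of the 9, where 0.575% of all genes did. It was -0.02 for Spp1, -0.18 for Acp5, -0.58 for Ctsk, -0.01 for Cd9 and 0.21 for Fabp5. The value contains KO_ASO vs KO_PBS and is a description for the same reason. KO_ASO vs WT_PBS gave 0 calls among the 9 genes by edgeR and by DESeq2, with 2 at an unadjusted P under 0.05, Lgals3, which was higher, and Acp5, which was lower (log2FC -1.14), where 0.0401% of all genes were called and 8.22% had an unadjusted P under 0.05. Lgals3 and Fabp5 were the 2 of the 9 genes whose KO_ASO samples all lay above WT_PBS, as did those of 2.38% of all genes.

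Macrophage markers rose in KO_PBS, as Gpnmb, Atp6v0d2 and Lgals3 did. Of 10 listed markers of the cell type, all tested, 9 were called higher in KO_PBS vs WT_PBS and 6 of them lower in KO_ASO vs KO_PBS, with a median log2FC of 1.81 and -1.65. Of all genes 7.43% and 2.83% were called so, respectively. Cd68, a lysosomal glycoprotein of macrophages, measured 2.19, 1.86, 1.87 and 1.91 CPM in WT_PBS, 25.6, 17.9, 17.6 and 22.2 CPM in KO_PBS and 3.12, 2.08, 2.73 and 5.54 CPM in KO_ASO. Its log2FC was 3.41 (SE 0.31, edgeR adjusted P = 7.49e-06). Csf1r, the receptor for the macrophage growth factor, rose by 1.67 (SE 0.33, edgeR adjusted P = 0.00448), and C1qc, a complement component, by 1.94 (SE 0.37, edgeR adjusted P = 0.00356). Mertk, a receptor for dying cells, was the 1 marker not called, with a log2FC of 0.15. Without KO_PBS replicate 4, 7 of the 10 were called higher in KO_PBS vs WT_PBS (median 1.42) and 2, Csf1r and Cd68, lower in KO_ASO vs KO_PBS (median -1.18). None of the 10 markers was near 0 in every sample. The summed level of the 10 was 41.6 to 70.1 CPM in WT_PBS, 41.8 to 96.7 CPM in WT_ASO, 110 to 329 CPM in KO_PBS and 44.9 to 67.3 CPM in KO_ASO.

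Within KO_PBS the genes stood differently to this sum. Trem2 and Spp1 were highest in replicate 4 and next highest in replicate 1, as the sum was (329 and 185 CPM), whereas Gpnmb was lowest in replicate 1. Replicate 4, with a sum of 329 CPM, had the highest Gpnmb, Lgals3 and Trem2 but the lowest Atp6v0d2, and replicate 2, with 110 CPM, had the highest Atp6v0d2 and the lowest Trem2. Per 100 CPM of macrophage markers, Gpnmb was 13.4 to 34.7 CPM in KO_PBS and 2.65 to 9.09 CPM in WT_PBS, and Atp6v0d2 was 0.412 to 3.59 CPM against 0.0417 to 0.301 CPM. Lgals3 was 13.0 to 23.9 CPM against 4.30 to 9.63 CPM, so that KO_PBS stayed above WT_PBS without overlap for these 3. KO_PBS lay below WT_PBS without overlap for Cd9 (4.98 to 17.9 against 21.9 to 40.2 CPM), Fabp5 (1.83 to 5.04 against 5.86 to 11.1 CPM) and Ctsk (3.44 to 7.03 against 8.05 to 16.9 CPM). Spp1 and Acp5 overlapped. The share of all genes by this measure is not given here, so nothing is read from these ranges. In KO_ASO Gpnmb, Atp6v0d2 and Lgals3 were 3.63 to 9.37, 0 to 0.207 and 9.31 to 21.5 CPM, respectively, and Lgals3 overlapped KO_PBS. Trem2 by the same measure was 0.181 to 1.93 CPM in KO_PBS and 0.375 to 0.602 CPM in WT_PBS, which overlap. The part of the macrophage markers in the levels of the 9 genes was not tested.

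**Figure D3:**
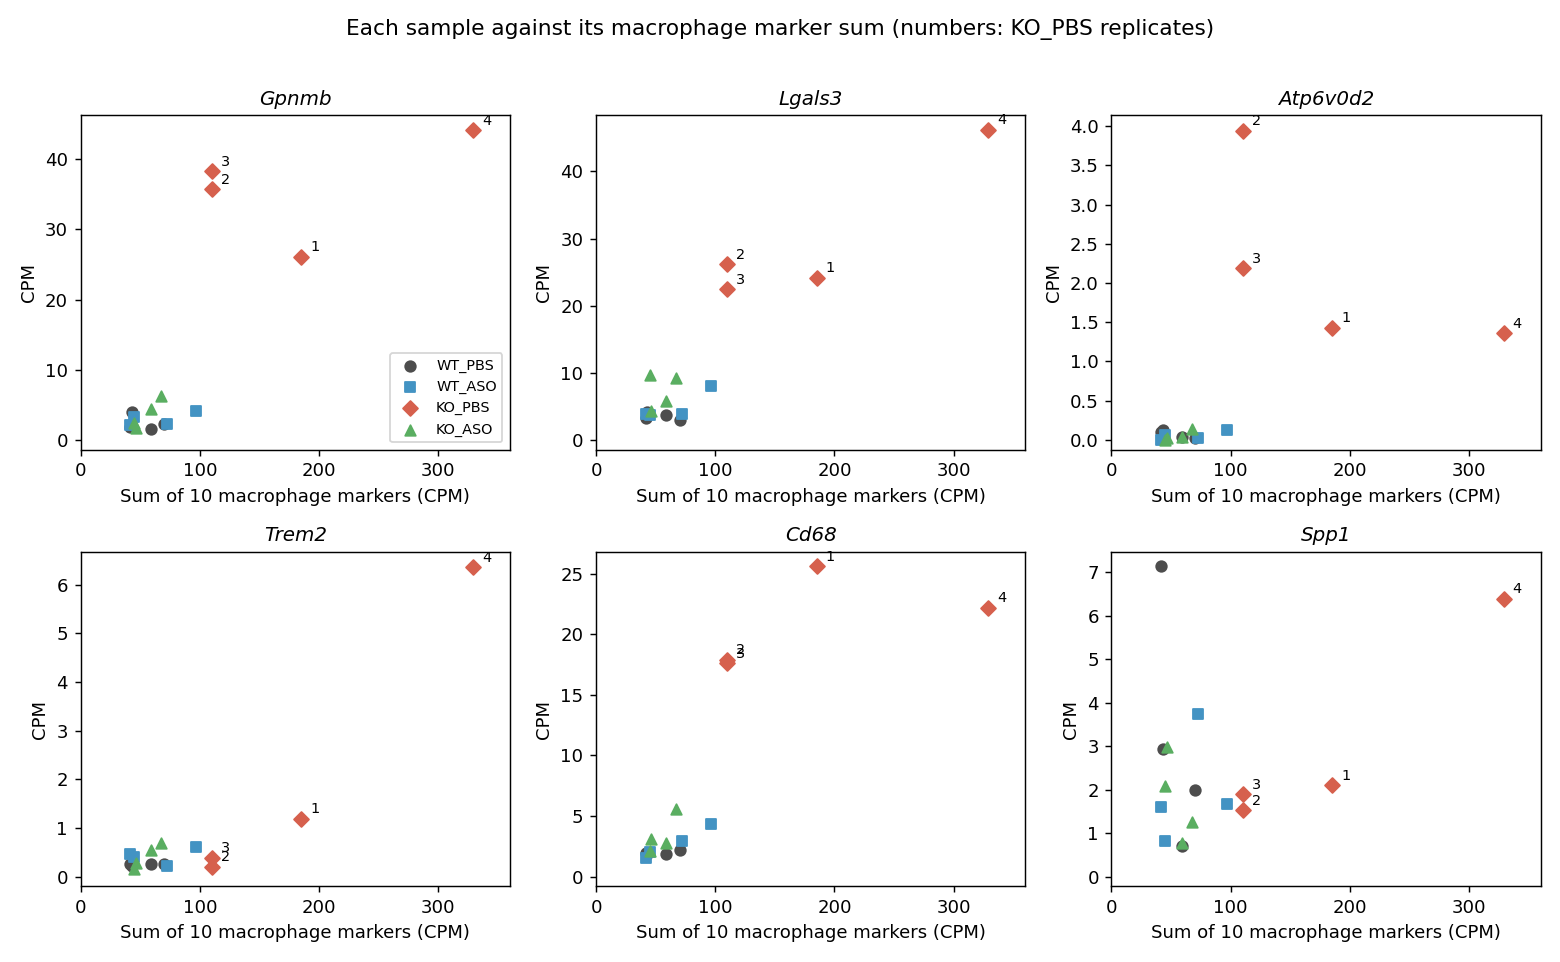
Level of Gpnmb, Lgals3, Atp6v0d2, Trem2, Cd68 and Spp1 (vertical axes, CPM) against the summed level of 10 macrophage markers, Cd68 among them (horizontal axis, CPM), with 1 point per sample and the KO_PBS replicates numbered. KO_PBS samples lie at sums of 110 to 329 CPM, Trem2 is highest at the largest sum (6.36 CPM) and next at 185 CPM (1.19 CPM), and Atp6v0d2 is highest at a sum of 110 CPM.

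Markers of other cells were examined beside these in KO_PBS vs WT_PBS, where 7.43% of all genes were called higher and 5.12% lower. Of 6 osteoclast markers, Dcstamp, needed for cell fusion, had under 10 counts in every sample, Ocstamp and Oscar did not exceed 0.450 and 0.348 CPM in any sample, and the summed level was 1.39 to 3.40 CPM in KO_PBS and 2.12 to 3.23 CPM in WT_PBS. The 1 osteoclast marker called was Calcr, which fell by 2.43 (SE 0.55) and is also a marker of satellite cells, the stem cells of muscle, of which all 3 listed were lower in KO_PBS. Of 6 markers of resident macrophages, 3 were called higher, Cd163 by 1.51, Folr2 by 1.98 and Mrc1 by 1.04, the last of which was not called without KO_PBS replicate 4 (0.62, edgeR adjusted P = 0.116). The 3 B cell and 4 T or NK cell markers had under 10 counts in every sample, and neutrophil markers summed to 0.366 to 5.60 CPM in KO_PBS, the highest in replicate 4. Adipocyte markers were also highest there, at a sum of 22.8 CPM against 0.441 to 7.93 CPM in the other KO_PBS samples and 2.91 to 4.88 CPM in WT_PBS, though WT_ASO replicate 1 was higher still at 24.4 CPM. Of 4 fibro-adipogenic markers 2 were called higher, Pdgfra by 0.95 and Dcn by 0.58, though neither was called without that sample (0.89 and 0.50, edgeR adjusted P = 0.0625 and 0.0876), and of 4 markers of regenerating fibres 2, Myog by 2.70 and Myh8 by 0.97. Of 5 markers of mature fast fibres 2 were lower, Tnnt3 by a log2FC of -0.40 and Pvalb by -0.73. Of the 19 tested markers of monocytes, neutrophils, dendritic cells, endothelium, Schwann cells, adipocytes and erythroid cells edgeR called 0 in this comparison. Among these 19, 2 had an unadjusted P under 0.05, against 27.3% of all genes, and DESeq2 called 1, the neutrophil marker S100a9. The median log2FC was 1.37 for the 4 adipocyte markers, 1.35 for the 2 monocyte markers tested and 3.42 for the 1 neutrophil marker tested, and without KO_PBS replicate 4 it was 0.55, 0.15 and 1.06, respectively. The part of these cell types in the result was not tested.

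The pathways around the 9 genes were then read over 106 other genes in 8 lists, of which 91 were tested. In KO_PBS vs WT_PBS, 24 were called higher and 4 lower, against 12.6% of all genes in either direction, with a median log2FC of 0.18. Leaving out 1 sample moved the 28 calls to 16 (WT_PBS 2, WT_PBS 3 or KO_PBS 1), 13 (WT_PBS 4) or 17 (KO_PBS 4). In KO_ASO vs KO_PBS, 7 were called lower and 0 higher, with a median of -0.14. Over all genes 3.64% were called in either direction. Leaving out 1 sample moved the 7 calls to 0 (KO_PBS 1, KO_ASO 1 or KO_ASO 3), 1 (KO_PBS 4), 3 (KO_ASO 2 or any WT_PBS sample) or 13 (KO_PBS 3). In WT_ASO vs WT_PBS and KO_ASO vs WT_ASO edgeR called 0 of the 91, with 8 and 18 genes at an unadjusted P under 0.05 and 1 and 5 called by DESeq2.

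Genes of the lipid-associated macrophage programme rose in part: of 19 other genes listed, 18 were tested and 8 were called higher, with a median log2FC of 0.46. In KO_ASO vs KO_PBS 4 were called lower. Of all genes 7.43% were called higher in KO_PBS vs WT_PBS and 2.83% lower in KO_ASO vs KO_PBS. Without KO_PBS replicate 4 the calls higher were 4, Cd63, Ctsl, Ctsz and Lgals1, and the calls lower were lost, with a log2FC of -0.48 against -0.43 for Lgals1, -0.31 against -0.36 for Ctsl, -0.34 against -0.41 for Ctsz and -1.06 against -1.62 for Tyrobp. The lysosomal proteases Ctsz and Ctsl rose by 0.52 (SE 0.11, edgeR adjusted P = 0.00499) and 0.40 (SE 0.09, edgeR adjusted P = 0.00697), and Lgals1, encoding galectin-1, by 0.52 (SE 0.11, edgeR adjusted P = 0.00651). Lpl, Cd36, Plin2 and Fabp4, genes of lipid uptake and storage that muscle and fat also express, were not called, with a log2FC of -0.11, -0.06, 0.19 and -0.24. Cst7 had under 10 counts in every sample. Of the 9 genes of Trem2 signalling and shedding, 8 were tested and 2 were called higher, Tyrobp by 1.58 (SE 0.41, edgeR adjusted P = 0.0209) and Syk by 0.74 (SE 0.23, edgeR adjusted P = 0.0393). Tyrobp measured 4.63, 2.66, 2.85 and 9.96 CPM in KO_PBS and 1.27 to 2.25 CPM in WT_PBS, so that the adaptor was higher in all 4 KO_PBS samples, including replicate 2, in which Trem2 was not. With KO_PBS replicate 4 left out, Tyrobp (1.01, edgeR adjusted P = 0.071) and Syk (0.62, edgeR adjusted P = 0.105) were not called. Adam10 and Adam17, proteases that shed Trem2, were not called.

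Genes of the vacuolar proton pump were called in both directions. Of its 23 other genes 20 were tested, 4 were called higher and 2 lower, where 7.43% and 5.12% of all genes were, and the median log2FC was 0.06. Atp6ap2, an accessory subunit, rose by 0.87 (SE 0.12, edgeR adjusted P = 0.000273) and Atp6v1a, the catalytic subunit, by 0.59 (SE 0.11, edgeR adjusted P = 0.00316), while Atp6v0a2 fell by 0.22 (SE 0.06, edgeR adjusted P = 0.0184). Leaving out KO_PBS replicate 4 gave 3 called higher and 1 lower, and Atp6v0a2 was not called (-0.20, edgeR adjusted P = 0.0631). Of 7 MiT/TFE factors and regulators 6 were tested and 0 called by edgeR (0 at an unadjusted P under 0.05, 0 by DESeq2), with Mitf at a log2FC of -0.08, Tfeb at 0.00 and Tfe3 at 0.11. Of 15 genes of cholesterol efflux and lipid uptake 2 were called higher and 1 lower, again beside 7.43% and 5.12% of all genes. Soat1, which esterifies cholesterol, rose by 0.73 (SE 0.19, edgeR adjusted P = 0.0213) and Msr1, a scavenger receptor, by 2.5 (SE 0.77, edgeR adjusted P = 0.0446). Rxra, a nuclear receptor, fell by 0.54 (SE 0.13, edgeR adjusted P = 0.0133). Msr1 measured 0.689, 0.510, 0.390 and 5.52 CPM in KO_PBS, with replicate 4 high as for Trem2, and at most 0.577 CPM in WT_PBS, so that the groups overlapped. Without KO_PBS replicate 4 neither Msr1 (0.76, edgeR adjusted P = 0.362) nor Soat1 (0.49, edgeR adjusted P = 0.0667) was called.

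The receptors of osteopontin rose in part. Of 9 listed, all tested, 6 were called higher and 0 lower in KO_PBS, where 7.43% and 5.12% of all genes were, with a median log2FC of 0.65. Cd44 reached 16.8 CPM in KO_PBS, every sample of which lay above the WT_PBS range of 5.50 to 6.33 CPM (log2FC 1.22, SE 0.24, edgeR adjusted P = 0.00341). The integrin Itga5 rose by 1.0 (SE 0.18, edgeR adjusted P = 0.00181) and Itgb1 by 0.52 (SE 0.09, edgeR adjusted P = 0.00127). Itgb3 was the 1 receptor called in KO_ASO vs KO_PBS (log2FC -0.98, SE 0.24, edgeR adjusted P = 0.0348), where 2.83% of all genes were called lower. In KO_PBS it was also the 1 gene called higher, by 0.76, among the 11 tested of 14 genes of osteoclast differentiation and resorption. Leaving out KO_PBS replicate 4 kept 4 receptors called higher, Cd44, Itgav, Itgb1 and Itga5, and Itgb3 was called in neither comparison, at much the same log2FC of 0.74 and -0.96 (edgeR adjusted P = 0.0836 and 0.0708). Nfatc1, the factor that drives osteoclast formation, was not called, with a log2FC of 0.12.

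Among 21 relatives of the 9 genes, 15 were tested, 6 were called higher and 0 lower in KO_PBS, where 7.43% and 5.12% of all genes were. In KO_ASO vs KO_PBS 3 were called lower, where 2.83% of all genes were. Besides Lgals1 and Ctsl, Cd63, a tetraspanin of lysosomes, rose by 0.40 (SE 0.10, edgeR adjusted P = 0.0132). Ctss, a related protease of macrophages, rose by 2.18 and measured 5.27 to 38.0 CPM in KO_PBS against 2.31 to 4.50 CPM in WT_PBS. Without KO_PBS replicate 4 it rose by 1.13 (edgeR adjusted P = 0.0398), 5 relatives were called higher, and the calls lower in KO_ASO vs KO_PBS were lost, with Ctss at -1.11 against -2.16. Ibsp then passed the filter on low counts, which made 16 relatives tested, and was called lower in KO_PBS vs WT_PBS (edgeR adjusted P = 0.0254). Fabp3 and Fabp4, the fatty acid carriers of muscle and fat, were not called, at a log2FC of 0.30 and -0.24, as Fabp5 was not.

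**Figure D4:**
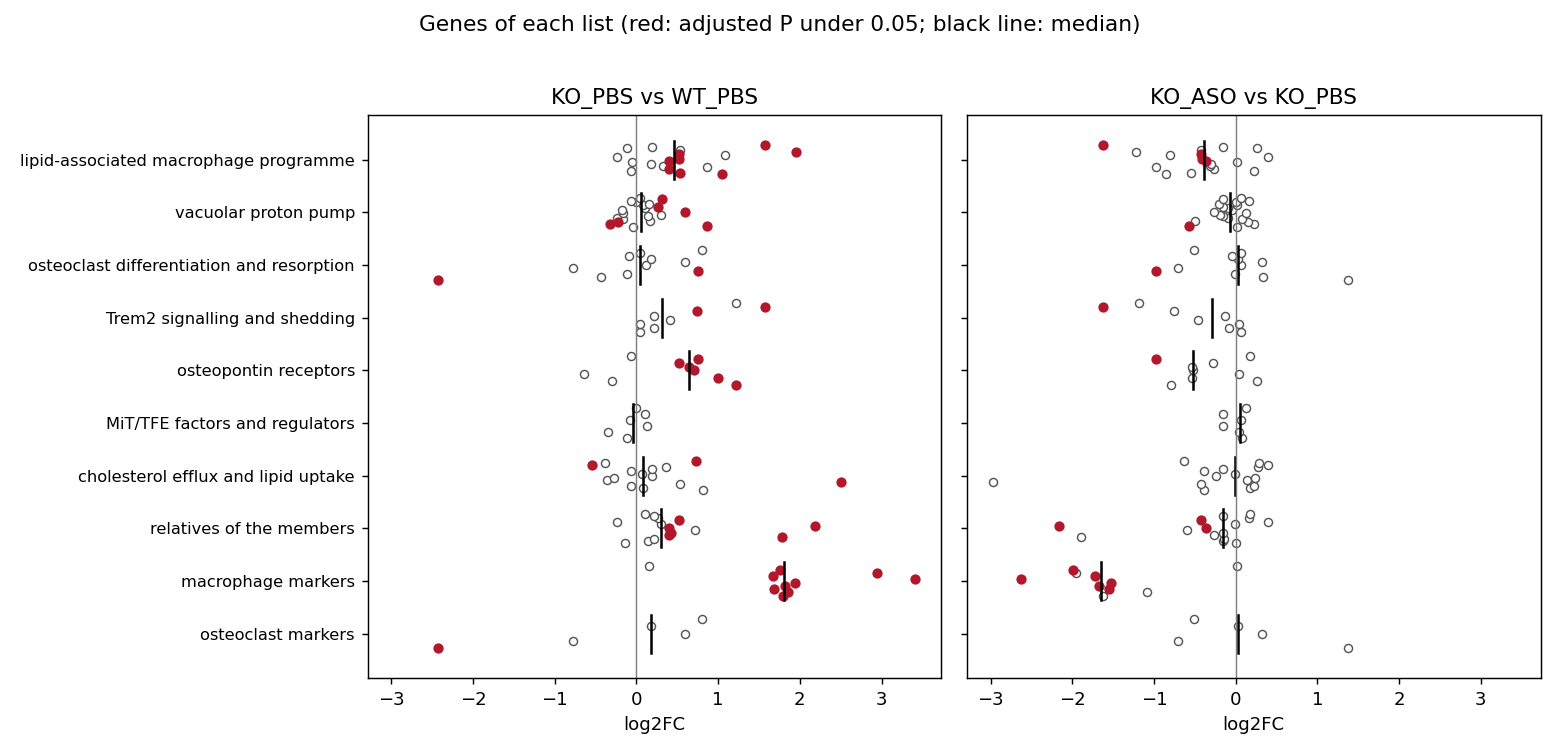
log2FC (horizontal axis) of the genes tested in 8 pathway lists, without the 9 genes themselves, and in the macrophage and osteoclast marker lists, in KO_PBS vs WT_PBS and KO_ASO vs KO_PBS. Each point is a gene, red where the edgeR adjusted P was under 0.05, and the black line is the list's median, which is 1.81 for the macrophage markers and 0.06 for the proton pump in KO_PBS vs WT_PBS.

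The genes whose log2 CPM was most like that of Gpnmb over the 16 samples were Rnh1 (Pearson r = 0.961), Gm18830 (r = 0.953), Cd68 (r = 0.95), Cers6 (r = 0.943) and Fbxl13 (r = 0.943). The samples share 4 groups of which KO_PBS stands apart, so that these values describe mainly that step, and no test is given. Rnh1, the ribonuclease inhibitor, measured 45.0 to 50.1 CPM in WT_PBS, 77.6 to 89.1 CPM in KO_PBS and 45.7 to 54.2 CPM in KO_ASO. Cers6, a ceramide synthase, measured 0.602 to 0.830, 2.41 to 3.87 and 0.760 to 1.28 CPM, and Fbxl13, an F-box gene, 0.0292 to 0.182, 1.76 to 3.78 and 0.109 to 0.418 CPM, so that both stepped up in each KO_PBS sample as Gpnmb did. Gm18830 is a processed pseudogene with at most 0.482 CPM in any sample, and the gene its reads came from is uncertain.

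With the group means taken out, which removes the step between groups, the 9 genes varied together weakly. Over the 16 samples the mean Pearson r of the 36 pairs was 0.251, from -0.191 for Atp6v0d2 and Trem2 to 0.646 for Acp5 and Fabp5, and 32 of the 36 were above 0. Gpnmb and Atp6v0d2 had r = 0.639, Spp1 and Acp5 r = 0.635 and Gpnmb and Lgals3 r = 0.523, while Gpnmb and Spp1 had r = -0.164. Outside KO_PBS Atp6v0d2 held at most 5 counts a sample, so its r values rest there on a few reads. Within KO_PBS, Atp6v0d2 was highest in replicate 2 and lowest in replicate 4, where Gpnmb was highest. The libraries share depth and tissue makeup, and these values are a description. By the same measure the genes most like the 9, on average, were Man2b2 (r = 0.540), a lysosomal mannosidase, Grk3 (r = 0.523), a receptor kinase, Plxnb2 (r = 0.523), a semaphorin receptor, Grn (r = 0.519), which encodes progranulin, and Lgmn (r = 0.516), a lysosomal protease. Of these, Lgmn measured 32.6 to 39.7 CPM in WT_PBS and 52.9 to 87.2 CPM in KO_PBS, and Man2b2 4.84 to 6.87 and 5.16 to 7.89 CPM, which overlap.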

How the data were processed

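The data are raw read counts per Ensembl gene, as the authors deposited them, with 1 column per sample. Tools named in the submitters' processing notes are STAR 2.5.3a, HTSeq 0.6.1p1, Bowtie2 2.2.8 and cutadapt 1.10, and the build is GRCm38. The sources used here give neither their roles nor the strand setting of the counting. The library kit was stranded, per the labels. Symbols, coordinates and exon lengths came from GENCODE M21, which matched 29730 of 29730 identifiers. No gene that overlaps 1 of the 9 held a mean of 1 count.

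The edgeR filter filterByExpr kept 14960 genes. All 16 samples entered a robust quasi-likelihood model (edgeR 4.0.16, R 4.3.3) with TMM scaling and a mean for each group. Benjamini-Hochberg adjustment ran over all genes tested, and a gene was called at an adjusted P under 0.05. The common biological coefficient of variation was 18.7%. An SE is the log2FC divided by the root of the F statistic. log2 CPM used a prior count of 2. Each sample is taken to be a mouse. If it is not, P values measure only the spread between these samples. Samples of a group differed by a mean chi-square per gene of at least 21.7, far over counting noise. This does not show that each sample is a separate mouse. The scripts were tested on simulated data.

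The members and the lists, 8 of pathway genes and 16 of cell type markers, were chosen with earlier results of these data known. Genes named were the 9, up to 3 called genes per list with the smallest P in KO_PBS vs WT_PBS, the 5 most like Gpnmb and the 5 most like the 9 within groups, Bin1 and Dnm2. Other genes named were chosen after their values were seen. Alternatives were DESeq2 1.42.0, its size factors in edgeR, library totals, no filter, a fit of the groups compared alone, a replicate block, a prior count of 0.5 and leaving out each sample. Using 1 WT_PBS sample alone, and reading the marker lists without KO_PBS replicate 4, were added after seeing the data.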

Additional observations from a re-analysis of the deposited data

Results flagged for a closer look

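The change with ASO1 in Bin1mck-/- mice less that in wild-type mice was -3.56 (SE 0.53) on the log2 scale for Gpnmb and -2.49 (SE 0.44) for Lgals3, the 2 of the 9 genes past the edgeR threshold over all genes tested. The value contains KO_ASO vs KO_PBS, which was in view when the genes were selected, so it is a description and not a test. For Gpnmb and Lgals3 all 4 KO_ASO samples lay below all 4 KO_PBS samples, while WT_ASO and WT_PBS overlapped.

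Single samples lay far from the other 3 of their group by Dixon's test in 6 of 36 groups tested. Chance gives about 1 in 20 for independent tests of normal values. These tests share samples and used CPM, so no excess over chance is read from them. KO_PBS replicate 4 was the highest of its group for Trem2 (6.36 CPM), Lgals3 (46.2 CPM) and Spp1 (6.39 CPM), and it also had the highest macrophage marker sum, 329 CPM, whose part in these values was not tested. WT_ASO replicate 3 was the highest of its group for Lgals3 (8.05 CPM), with a macrophage marker sum of 96.7 CPM, the highest of the 8 wild-type samples. WT_ASO replicate 4 was the highest of its group for Cd9 (19.5 CPM), and its Schwann cell markers summed to 101 CPM against 36.7 to 41.5 CPM in the rest of the group. Its fibro-adipogenic markers were also the highest of the group, at 796 CPM against 201 to 678 CPM, and the part of either was not tested. WT_PBS replicate 2 was the lowest of its group for Fabp5 (3.46 CPM) and the sample of that group without Ibsp.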

How the results depend on the processing

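The calls of Gpnmb, Atp6v0d2 and Lgals3 in KO_PBS vs WT_PBS and KO_ASO vs KO_PBS were kept under every setting fixed at the outset, and 0 of the 9 genes were called in WT_ASO vs WT_PBS, KO_ASO vs WT_ASO and KO_ASO vs WT_PBS under any of them. Leaving out 1 sample gave 3 to 4 calls among the 9 in KO_PBS vs WT_PBS, 3 to 3 in KO_ASO vs KO_PBS and 1 to 2 in the interaction. Trem2 in KO_PBS vs WT_PBS ranged from 1.26 to 3.41 and was not called with no filter (adjusted P = 0.0935) or without 5 samples in turn. In the fit of only the groups compared, Trem2 did not pass the filter on low counts and was not tested there, and Ctsk was called (adjusted P = 0.0489). DESeq2 called Trem2 in KO_ASO vs KO_PBS (-2.28) and Atp6v0d2 in the interaction (-4.98). With no filter 1 of the 9 was called in the interaction, and Lgals3 was lost (adjusted P = 0.0672), as it was without WT_PBS replicate 4 or KO_ASO replicate 3. Causes were not tested.

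The median of all genes in KO_PBS vs WT_PBS was -0.0108 with TMM and 0.139 with library totals, so changes are relative to that scale. Library totals turned Spp1 in KO_PBS vs WT_PBS to 0.03 and Trem2 in KO_ASO vs WT_ASO to 0.10. Of 24 pairs of samples with the same replicate number, 11 had deviations that correlated over 0.1 (-0.0777 to 0.435), and a sample correlated best with its own number in another group in 29 of 48 cases, a hint from the data. As the correlation did not hold for every pair and the labels name no shared litter or batch, the samples were not treated as paired. P values of the main fit do not allow for such a link. The replicate block left 3 of the 9 called in KO_PBS vs WT_PBS, without Trem2 (2.5, adjusted P = 0.0607), 3 in KO_ASO vs KO_PBS and 2 in the interaction, and turned Spp1 to 0.11 in KO_ASO vs WT_ASO and 0.19 in the interaction.

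With WT_PBS replicate 2 as the only WT_PBS sample, an alternative added after seeing the data, 1 of the 9 and 0 pathway genes were called in KO_PBS vs WT_PBS, 1 pathway gene in KO_ASO vs KO_PBS and 0 of either in the interaction, with fewer samples in the fit. This sample was also the lowest of WT_PBS for Spp1 and Acp5. It turned Spp1 and Acp5 in KO_PBS vs WT_PBS to 2.07 and 1.08. In WT_ASO vs WT_PBS it turned Atp6v0d2, Spp1, Acp5, Cd9 and Fabp5 to 0.46, 1.47, 0.68, 0.20 and 0.26. In KO_ASO vs WT_PBS it turned Atp6v0d2, Spp1, Acp5 and Ctsk to 0.34, 1.33, 0.22 and 0.04, and in the interaction Fabp5 to -0.09.

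Counts of pathway genes moved more. In KO_PBS vs WT_PBS 17 were called with no filter, and 13 to 28 when 1 sample was left out. In KO_ASO vs KO_PBS 17 were called with library totals, 16 by DESeq2, 3 with only the groups compared and 0 to 13 without 1 sample. In WT_ASO vs WT_PBS DESeq2 and the fit with no filter called 1 each, and leaving out 1 sample 0 to 1. In KO_ASO vs WT_ASO DESeq2 called 5, and in KO_ASO vs WT_PBS leaving out 1 sample gave 0 to 1. In the interaction no filter gave 0 and leaving out 1 sample 0 to 1.

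Directions that turned when 1 sample was left out were all of genes not called in that comparison. In KO_PBS vs WT_PBS Spp1 ran from -0.80 to 0.65 and Acp5 from -0.88 to 0.23, and in KO_ASO vs KO_PBS Cd9 ran from -0.43 to 0.01. In WT_ASO vs WT_PBS Spp1 ran from -1.24 to 0.05 and Fabp5 from -0.20 to 0.21. In KO_ASO vs WT_ASO the ranges were -0.07 to 0.57 for Gpnmb, -1.21 to 0.63 for Atp6v0d2, -0.52 to 0.39 for Spp1, -0.11 to 0.33 for Ctsk, -0.37 to 0.25 for Trem2 and -0.05 to 0.43 for Cd9. In KO_ASO vs WT_PBS they were -0.41 to 0.03 for Ctsk and -0.15 to 0.30 for Cd9. In the interaction they were -0.79 to 0.67 for Spp1, -0.68 to 0.44 for Acp5, -0.34 to 0.14 for Cd9 and -0.05 to 0.36 for Fabp5. Low counts limit Atp6v0d2 and Trem2 most.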
